A study of Mus musculus with 10 samples.

Results

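The genes described here encode 7 transcription factors, Sim1, Uncx, Tbx20, Tbx2, Tbx3, Hmx3 and Hmx2, most of which are used as labels of V3 interneurons or visceral motor neurons. They were taken by name: every probe set whose platform annotation names one of them was included. This gave 14 of the 45037 probe sets that are not controls, namely 5 for Tbx3, 3 for Tbx20, 2 for Sim1 and 1 each for Uncx, Tbx2, Hmx3 and Hmx2. None of the 14 carries a second gene symbol. Expression arrays had been hybridised with RNA of 5 Nkx2.2-/- mice (replicates 11, 12, 22, 29 and 43) and of 5 wild-type littermates (replicates 14, 15, 16, 18 and 21), all of the strain C57BL/6 and aged 1.5 to 2 days. The RNA came from sections of 20 µm that held pons, medulla and rostral spinal cord. The labels name no Cre driver or other conditional allele. They describe a dissected tissue that holds all of its cell types, so fewer cells of a type and less RNA per cell cannot be told apart. On a pair of arrays the 5 prime control signal of Gapdh was dim: the 3 prime minus 5 prime difference was 3.78 in Nkx2.2-/- replicate 43 and 2.13 in wild-type replicate 14, against -0.32 to 0.13 on the other 8 arrays. Without both, as with them, 0 of the 14 probe sets were called.

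Nkx2.2 is a homeodomain repressor of the most ventral neural progenitors beside the floor plate, called the p3 domain in the spinal cord. Those progenitors give rise to V3 interneurons in the spinal cord, and in the hindbrain first to visceral and branchial motor neurons and later to serotonergic neurons. Sim1, a bHLH-PAS factor, defines V3 interneurons, and Uncx, a paired-type homeodomain factor, is expressed in part of them. Tbx20, Tbx2 and Tbx3 are T-box factors found in cranial motor neurons, where Tbx20 acts in the migration of facial motor neurons. Hmx3 and Hmx2 are homeodomain factors best known from the inner ear and the hypothalamus, and in zebrafish hmx3a acts in spinal interneurons.

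The promoter windows of the V3 factors Uncx and Sim1 are shown because these genes are the named products of the Nkx2.2 domain in the cord, and because Uncx was the only member whose signal varied widely between arrays. RefSeq (GRCm38.p6) gave windows of 250 bases before to 50 bases after the annotated start for 5 of the 7 genes, 6 windows in all. Each was searched on both strands for TNAAGTG, a core bound by NK2 homeodomain proteins, and for TAATTA, a core bound by paired-type homeodomain proteins, both picked with the results known. Capitals mark the matches. The Uncx window lies at chr5:139543648-139543947 and the Sim1 window at chr10:50895401-50895700, both on the plus strand.
Uncx: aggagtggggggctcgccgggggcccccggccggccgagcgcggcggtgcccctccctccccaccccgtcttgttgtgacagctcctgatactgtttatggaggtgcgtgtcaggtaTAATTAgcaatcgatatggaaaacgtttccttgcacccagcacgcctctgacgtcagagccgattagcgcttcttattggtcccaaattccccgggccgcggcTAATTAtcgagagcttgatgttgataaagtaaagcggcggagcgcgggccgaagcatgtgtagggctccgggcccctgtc
Sim1: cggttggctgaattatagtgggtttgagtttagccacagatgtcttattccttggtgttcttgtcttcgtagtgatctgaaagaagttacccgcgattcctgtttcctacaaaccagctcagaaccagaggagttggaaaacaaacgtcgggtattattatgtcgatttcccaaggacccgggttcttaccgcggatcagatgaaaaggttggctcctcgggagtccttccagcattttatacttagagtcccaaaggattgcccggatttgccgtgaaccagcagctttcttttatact
TAATTA, which reads the same on both strands, stood in the Uncx window at 133 to 128 and at 30 to 25 bases before the start. It occurs in 5.29% of the 32851 RefSeq promoter windows. TNAAGTG was in 0 of the 6 windows, against 11.5% of all windows, and the windows of Sim1, Tbx20, Hmx3 and Hmx2 (2 windows) held neither core. These counts describe the letters of short windows only and say nothing of whether a protein binds there.

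None of the 14 probe sets was called between Nkx2.2-/- and wild-type mice by the test over all probe sets (limma, Benjamini-Hochberg adjusted p = 0.9997 for each). The log2 change, Nkx2.2-/- minus wild type, was above 0 for 7 of them and below 0 for 7, with a median of -0.001 beside one of 0.0010 over all probe sets. Of all 45037 probe sets 0.0511% were called lower and 0% higher, so a count of 0 among 14 is near the background. Without adjustment 0 of 14 had a limma p under 0.05, against 3.43% of all probe sets, and the smallest p was 0.176. The values of both genotypes overlapped for all 14, while 0.757% of all probe sets had groups that did not overlap.

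The same arrays did separate the genotypes at Nkx2-2 itself. Its probe set 1421112_at read 4.73, 4.34, 4.24, 4.58 and 4.64 in Nkx2.2-/- replicates 11, 12, 22, 29 and 43, against 6.88, 6.47, 6.49, 6.51 and 6.42 in wild-type replicates 14, 15, 16, 18 and 21. Nkx2-2 thus changed by -2.05 (95% interval -2.29 to -1.80; limma adjusted p = 7.23e-05; exact two-sided permutation p = 0.00794, the smallest that 5 against 5 allows). The files do not say where this probe set lies relative to the deletion. Outside Uncx the 95% intervals of the 13 other probe sets lay between -0.37 and 0.24, or 0.77-fold to 1.18-fold. Those intervals hold for the deposited signal, which for a dim probe set understates a change of its transcript.

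**Figure D1:**
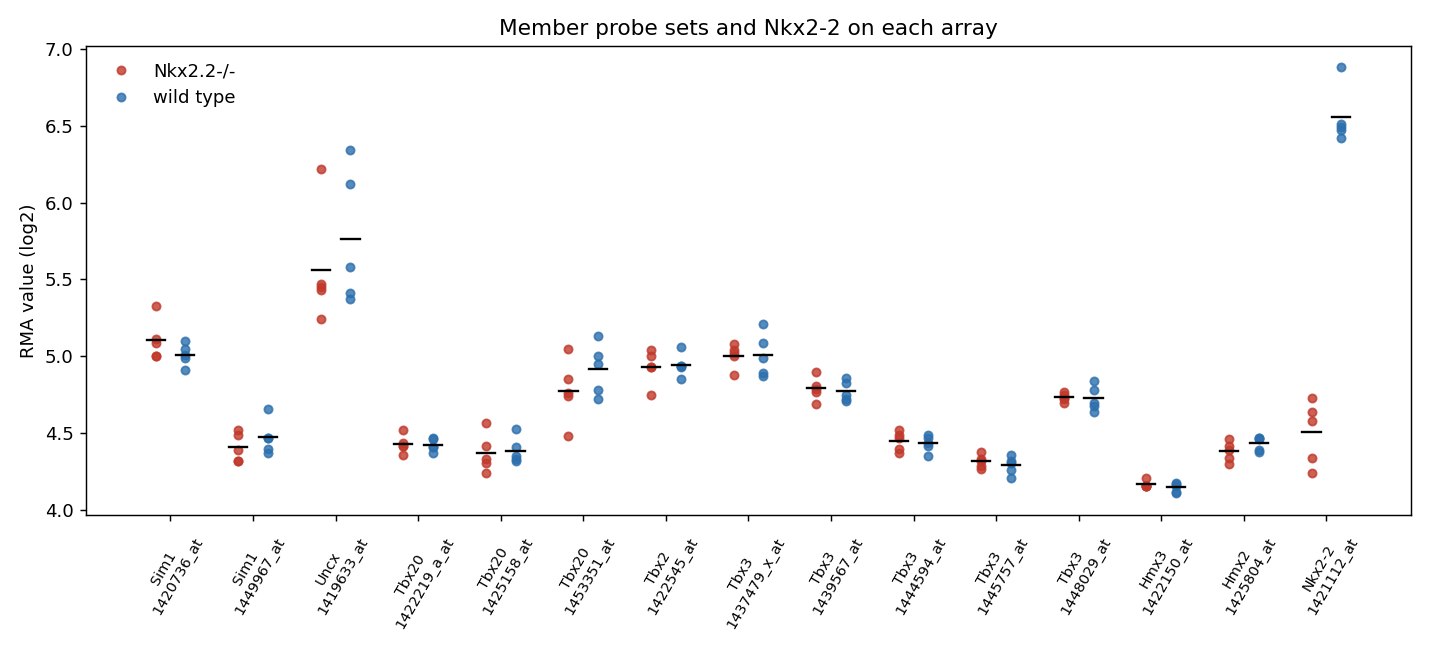
Values of the 14 probe sets and of Nkx2-2 (x axis) on each array, as RMA values on the log2 scale (y axis), with Nkx2.2-/- mice in red, wild-type mice in blue and group means as black bars (5 mice each). The genotypes overlap in all 14, in Uncx 3 mice lie above 6, and only Nkx2-2 separates the genotypes.

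**Figure D2:**
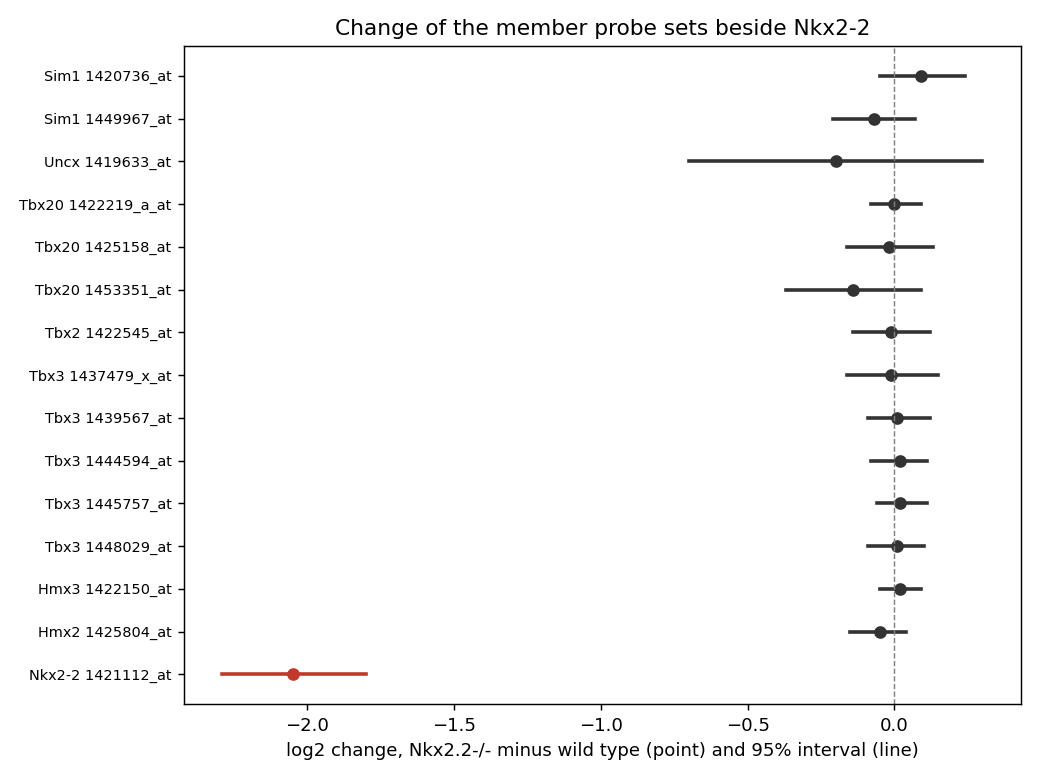
Log2 change, Nkx2.2-/- minus wild type (x axis), with its 95% interval from limma for each member probe set and, in red, Nkx2-2 (rows). All 14 intervals take in 0, and the widest, that of Uncx, runs from -0.70 to 0.30.

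Most of these probe sets were dim. Means over the 10 arrays lay between 4.16 and 5.06 for 13 of the 14, below the median of 5.09 over all probe sets, at percentiles from 6.15 to 48.8. The exception was Uncx, at percentile 65.2, with 3 arrays at 6.12 to 6.34 and the other 7 at 5.24 to 5.58. For comparison, the probe sets of 22 genes of pancreas, testis, oocyte, gut and other organs, the brightest for each gene, ran from 4.07 to 5.50 with a median of 4.79 and a 90th percentile of 5.36, and 13 of the 14 member probe sets lay under that 90th percentile. Genes of most neurons, such as Nefl and Snap25, had a median percentile of 98.8. Probe sets differ in how strongly they hybridise, so these levels are not ranked between genes. They do not show whether the transcripts of the other 6 genes were picked up at all, or that of Uncx on those 7 arrays. The deposited table gives no detection calls.

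Sim1 was read by a pair of probe sets whose changes had opposite signs, neither called. In 1420736_at it stood at 5.33, 5.09, 5.11, 5.0 and 5.0 in Nkx2.2-/- replicates 11, 12, 22, 29 and 43, against 5.05, 5.01, 4.99, 4.91 and 5.10 in wild-type replicates 14, 15, 16, 18 and 21. Nkx2.2-/- replicate 11 was the highest of the 10, and the other 4 Nkx2.2-/- values fell inside the wild-type range or within 0.01 of it. The change was 0.09 (SE 0.0648, 95% interval -0.05 to 0.24, limma adjusted p = 0.9997), and 0.038 without Nkx2.2-/- replicate 11. In 1449967_at Sim1 read 4.52, 4.32, 4.39, 4.49 and 4.32 in the same order of Nkx2.2-/- mice, against 4.40, 4.37, 4.47, 4.66 and 4.47 in wild-type mice. Here the change was -0.07 (SE 0.0638, 95% interval -0.21 to 0.07), and wild-type replicate 18 was the highest array. Without that array the change was -0.019, and leaving out each of the others gave -0.095 to -0.043. With the mean of cerebellar genes as a covariate the change was -0.025 (SE 0.0511). It was -0.041 with the mean of spinal Hox genes and -0.084 with that of meningeal and fibroblast genes. The interval of the brighter probe set takes in a fold of 0.97 to 1.18, and that of the dimmer a fold of 0.87 to 1.05.

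Uncx showed the widest spread of the members. Probe set 1419633_at read 6.22, 5.45, 5.43, 5.47 and 5.24 in Nkx2.2-/- replicates 11, 12, 22, 29 and 43, against 5.41, 5.58, 5.37, 6.34 and 6.12 in wild-type replicates 14, 15, 16, 18 and 21. The arrays fell into 3 high ones, Nkx2.2-/- replicate 11 and wild-type replicates 18 and 21, at 6.12 to 6.34, and 7 low ones at 5.24 to 5.58. Means were 5.56 ± 0.380 in Nkx2.2-/- mice and 5.76 ± 0.439 in wild-type mice (SD, n = 5 each). The change of -0.20 (SE 0.225, 95% interval -0.70 to 0.30, limma adjusted p = 0.9997) was smaller than either SD, and its interval in fold terms ran from 0.62 to 1.23. The SD within groups, 0.411, exceeded that of 99.0% of all probe sets, whose median was 0.0911. For the other 13 member probe sets it ran from 0.0282 to 0.186.

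The same 3 arrays were high in genes of the cerebellum, which borders the dissected region. The mean of 9 cerebellar genes, among them the Purkinje cell gene Pcp2 and the granule neuron gene Neurod1, was 6.95 in Nkx2.2-/- replicate 11, 7.10 in wild-type replicate 18 and 6.72 in wild-type replicate 21, against 5.97 to 6.16 on the other 7 arrays. It ran from 5.97 to 6.95 in Nkx2.2-/- mice and from 6.06 to 7.10 in wild-type mice, and 8 of the 9 genes were lower by sign in Nkx2.2-/- mice, with none called. Over all 18193 genes, each by its brightest probe set, 53.0% were lower by sign. With that mean as a covariate the Uncx change was 0.007 (SE 0.0615), a standard error under that of the fit without it. Of 13 spinal Hox genes 12 were higher by sign in Nkx2.2-/- mice with none called. The highest change among them, 1.33, was that of Hoxc8 (5.98 ± 1.17 in Nkx2.2-/- mice and 4.65 ± 0.122 in wild-type mice, SD). It was also the highest over all 18193 genes. The mean of the 13 genes ran from 5.0 to 5.55 in Nkx2.2-/- mice and from 4.93 to 5.18 in wild-type mice. It was lowest in wild-type replicate 18 (4.93) and Nkx2.2-/- replicate 11 (5.0), but wild-type replicate 21 (5.18) lay within the range of the 7 low arrays, 5.02 to 5.55. With that Hox mean as a covariate the change was 0.079 (SE 0.258). Without wild-type replicate 18 it was -0.055, without wild-type replicate 21 it was -0.111 and without Nkx2.2-/- replicate 11 it was -0.364. Because the same 3 arrays were high in Uncx and in the cerebellar mean, these fits do not separate the dissection from other differences between arrays. The part of the dissection in these Uncx values was not tested.

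**Figure D3:**
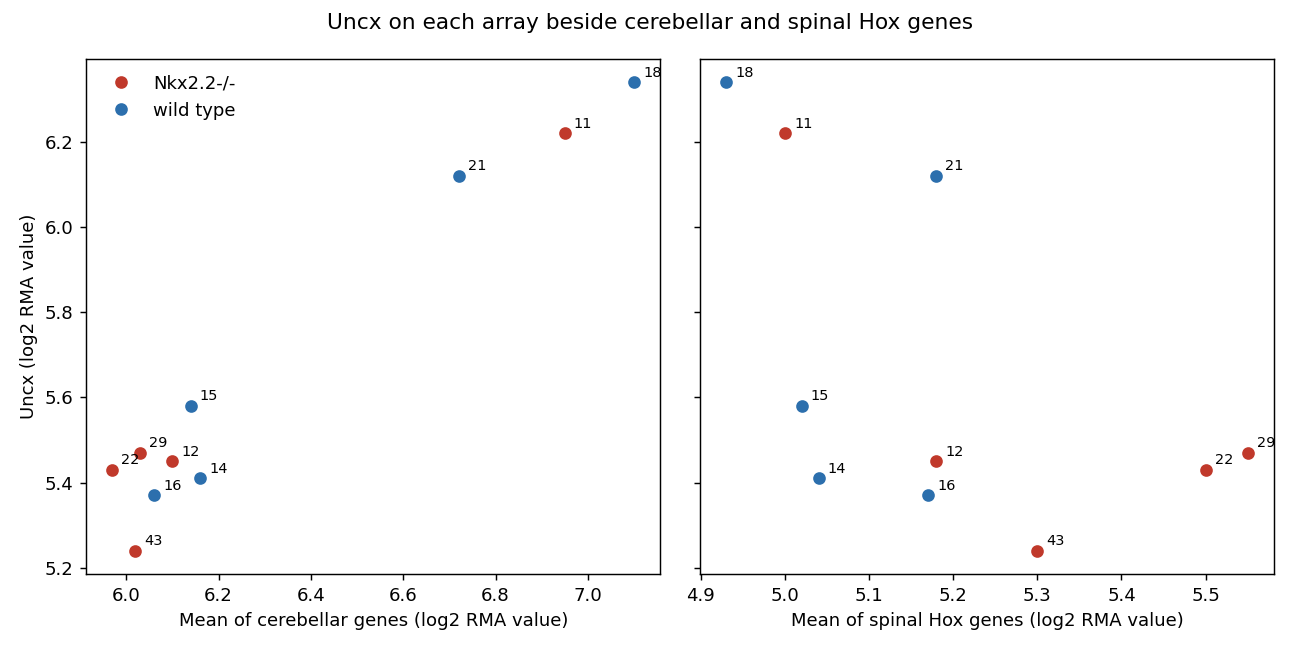
Uncx (y axis, log2 RMA value) against the mean of 9 cerebellar genes (left, x axis) and of 13 spinal Hox genes (right, x axis), 1 point per mouse with its replicate number, Nkx2.2-/- in red and wild type in blue. The 3 mice with Uncx above 6 are the 3 with a cerebellar mean of 6.72 or more, and they include both genotypes.

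Uncx was the one member bright enough for a search for genes of like pattern. Among probe sets with 1 symbol and a mean above the median, deviations from the group means over the 10 arrays were most like those of Uncx for H2az2, a histone H2A variant gene (Pearson r = 0.988), Igfbpl1 (r = 0.985) and Gm5089 (r = 0.981). These values describe the arrays and rest mainly on the 3 high ones. H2az2 read 8.28 to 8.55 on those 3 arrays and 7.57 to 7.89 on the other 7, and Igfbpl1 read 5.78 to 6.01 on those 3 and 5.14 to 5.42 on the other 7. Over the values of the 7 low arrays alone r was 0.91 for H2az2, 0.41 for Igfbpl1 and 0.76 for Gm5089. With deviations taken from the group means of those 7 arrays it was 0.90 for H2az2, 0.76 for Igfbpl1 and 0.73 for Gm5089. None of the 3 was called between genotypes, with changes of -0.22, -0.04 and -0.33.

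Tbx20, the T-box factor of migrating facial motor neurons, was read by 3 probe sets. The brightest, 1453351_at, stood at 4.48, 5.05, 4.74, 4.76 and 4.85 in Nkx2.2-/- replicates 11, 12, 22, 29 and 43, against 5.13, 5.0, 4.72, 4.95 and 4.78 in wild-type replicates 14, 15, 16, 18 and 21. The lowest array was Nkx2.2-/- replicate 11, and the other 4 Nkx2.2-/- values lay inside the wild-type range. The change was -0.14 (SE 0.105, 95% interval -0.37 to 0.09, limma adjusted p = 0.9997), with means of 4.78 ± 0.204 in Nkx2.2-/- mice and 4.91 ± 0.167 in wild-type mice (SD, n = 5 each). Leaving out Nkx2.2-/- replicate 11 gave -0.066, leaving out Nkx2.2-/- replicate 12 gave -0.207 and leaving out wild-type replicate 14 gave -0.086. The change was -0.054 with the mean of meningeal and fibroblast genes as a covariate. It was -0.180 with the mean of cerebellar genes and -0.132 with that of spinal Hox genes, and none of these was called. Of the 2 other probe sets, 1425158_at had a change of -0.02 (SE 0.0652) and 1422219_a_at one of 0.003 (SE 0.039). With the spinal Hox mean as a covariate these were -0.103 and 0.014, neither called.

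Tbx2, a T-box repressor, read 5.0, 4.93, 5.04, 4.93 and 4.75 in Nkx2.2-/- replicates 11, 12, 22, 29 and 43, against 4.94, 5.06, 4.85, 4.94 and 4.93 in wild-type replicates 14, 15, 16, 18 and 21. The ranges of the groups overlapped from 4.85 to 5.04, and the change was -0.01 (SE 0.0584, 95% interval -0.14 to 0.12). Tbx3, its closest relative, had 5 probe sets with changes from -0.01 to 0.02 and intervals that lay between -0.16 and 0.15. Its brightest, 1437479_x_at, read 4.88, 5.02, 5.0, 5.08 and 5.04 in the Nkx2.2-/- mice, against 4.89, 5.21, 4.99, 5.09 and 4.87 in the wild-type mice, in the same order of replicates. The suffix of that probe set marks probes that also match other transcripts, so its signal may not be Tbx3 alone. Both genes are also expressed outside neurons, in mesenchyme and vessel walls. Of 10 meningeal and fibroblast genes 9 were lower by sign in Nkx2.2-/- mice, and of 8 mural cell genes 8 were, beside 53.0% of all genes, with 0 called in either list. The list means ran from 6.21 to 6.65 in Nkx2.2-/- mice and from 6.04 to 7.33 in wild-type mice for the first, and from 5.89 to 6.19 in Nkx2.2-/- mice and from 5.91 to 6.40 in wild-type mice for the second. With the meningeal mean as a covariate Tbx2 had a change of 0.005 and Tbx3 in 1437479_x_at one of 0.069, neither called. The part of these cells in the Tbx2 and Tbx3 signal was not tested.

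Hmx3 and Hmx2 are neighbours, with 0 annotated genes between them in GRCm38.p6. Hmx3 in 1422150_at read 4.16, 4.16, 4.21, 4.16 and 4.16 in Nkx2.2-/- replicates 11, 12, 22, 29 and 43, against 4.16, 4.12, 4.18, 4.11 and 4.17 in wild-type replicates 14, 15, 16, 18 and 21. It was among the least variable probe sets of the array, with a within-group SD above that of 0.406% of all probe sets. Its change was 0.02 (SE 0.0321, 95% interval -0.05 to 0.09). Hmx2 in 1425804_at read 4.46, 4.42, 4.34, 4.39 and 4.30 in the Nkx2.2-/- mice, against 4.39, 4.47, 4.47, 4.46 and 4.38 in the wild-type mice. The 2 lowest arrays were both Nkx2.2-/-, but the change of -0.05 (SE 0.0415, 95% interval -0.15 to 0.04) was within the spread of the mice. It was -0.033 without Nkx2.2-/- replicate 43, -0.075 without Nkx2.2-/- replicate 11 and -0.015 with the spinal Hox mean as a covariate. No gene was called in lists of the tissues for which these factors are best known, beside 0.0605% of 18193 genes called lower. The sections are described as pons, medulla and rostral spinal cord, so these lists say little about the members. In the inner ear list 0 of 8 genes were called (list means 4.95 to 5.07 in Nkx2.2-/- mice and 4.97 to 5.02 in wild-type mice), and in the hypothalamus and forebrain list 0 of 10 (5.51 to 5.87 in Nkx2.2-/- mice and 5.53 to 6.31 in wild-type mice).

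Other genes of the same progenitors and their products were read from lists, by the brightest probe set of each gene, for which 0.0605% of 18193 genes were called lower and 0 higher. Of 9 genes of p3 progenitors and V3 interneurons 1 was called, Nkx2-2 itself, and the median change of the list was 0.05. Neurog3, a proneural factor of this domain, had a change of 0.07, and Arnt2, a dimerisation partner of Sim1, one of 0.14. Nkx2-9, the close relative of Nkx2-2, had one of 0.05. Slc17a6, the vesicular glutamate transporter of V3 and many other excitatory neurons, had one of 0.03 (limma adjusted p = 0.9997 for each of these genes). Neurog3 was dim, at percentile 22.5, whereas Arnt2 and Slc17a6 were bright, at percentiles 96.6 and 97.3. Of 12 measured genes of visceral and branchial motor neurons 0 were called, 6 were higher and 6 lower by sign, and the median was -0.01. In that list Gata3 had a change of -0.18 (SE 0.0976). Hoxb1, which patterns the facial motor nucleus, had one of 0.09 and Chat, which makes acetylcholine, one of 0.03. Hoxb1 (4.38 in Nkx2.2-/- and 4.29 in wild-type mice) and Chat (5.12 and 5.09) lay within the range of the other-organ genes, 4.07 to 5.50. For such dim genes the values do not show whether the transcript was picked up.

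For comparison, 0 of 5 somatic motor neuron genes were called, with Mnx1 at 0.08, Lhx3 at -0.06 and Isl2 at 0.03. These were dim: Mnx1 (4.31 in Nkx2.2-/- and 4.23 in wild-type mice), Lhx3 (5.21 and 5.27) and Isl2 (5.37 and 5.34) lay within the other-organ range, 4.07 to 5.50. Of 10 genes of other ventral interneurons 0 were called, with Sox21 at 0.13, Dbx1 at -0.08 and Foxp2 at -0.19. The median of the interneuron list was 0.03, beside -0.0042 over all genes. Of the T-box, Sim and Hmx relatives of the members 0 of 14 were called, and Tbx18, at -0.22, had the lowest p among them. Of 8 endothelial, 9 muscle, heart and somite and 6 melanocyte genes 0 were called. Of 6 measured genes of serotonergic neurons, the later product of the same hindbrain progenitors, 2 were called, both lower. They were Tph2, the enzyme of serotonin synthesis (4.38 ± 0.186 in Nkx2.2-/- mice and 5.82 ± 0.278 in wild-type mice, SD, n = 5 each, limma adjusted p = 0.00144), and Slc6a4, the serotonin transporter (5.20 ± 0.202 in Nkx2.2-/- mice and 6.60 ± 0.400 in wild-type mice, SD, n = 5 each, limma adjusted p = 0.0165). Ddc, the decarboxylase of serotonin synthesis, had a change of -1.17 and was not called (limma adjusted p = 0.124). The median of that list was -0.82, with 5 genes lower and 1 higher by sign and changes that ran from -1.44 to 0.15. Whether its change differs from those of the V3 and motor neuron lists was not tested.

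**Figure D4:**
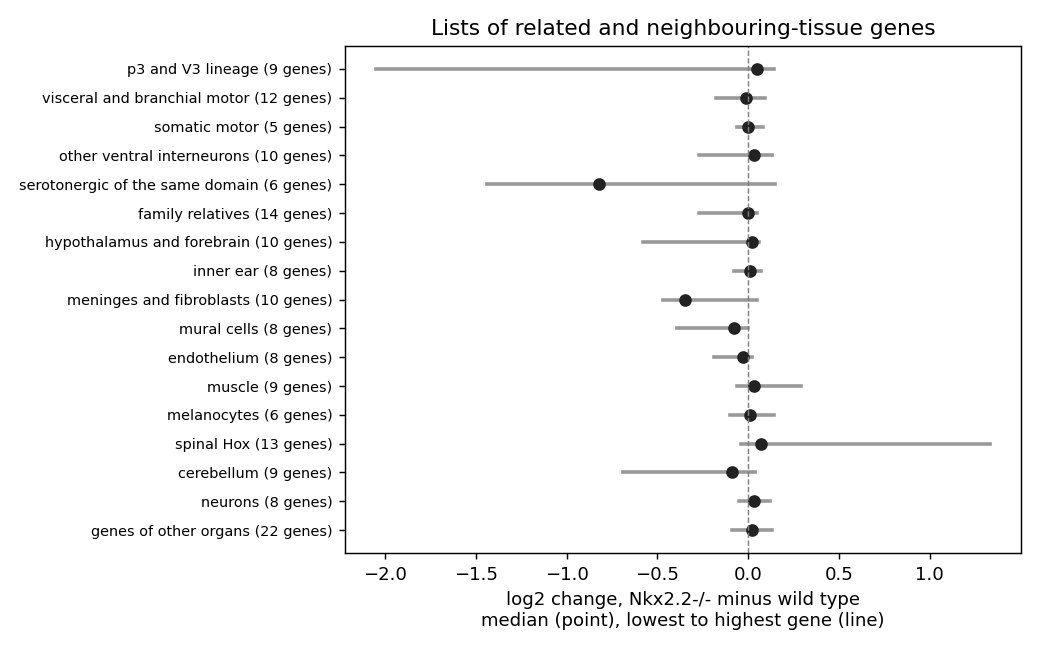
Log2 changes, Nkx2.2-/- minus wild type (x axis), in each gene list (rows), with the median as a point and the lowest to the highest gene as a line. The serotonergic list has its median at -0.82, and the low end of the p3 and V3 list is Nkx2-2 at -2.05.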

How the data were processed

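The authors deposited log2 values that RMA had produced, per the submitters' processing notes, with 1 value for each probe set on each array and no version given in the sources used here. RMA corrects background, quantile-normalizes and summarises probes. It gives no detection call and compresses differences between dim probe sets. RNA was extracted with TRIzol and labelled as biotinylated cRNA, per the labels' protocols. Dim probe sets were kept.

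The 45037 probe sets other than 64 controls were tested between genotypes with lmFit and eBayes of limma 3.58.1 (R 4.3.3), with Benjamini-Hochberg adjustment over all of them at 0.05. Nkx2-2 also had an exact permutation test. Intervals are 95% intervals of that fit. Gene names follow the platform annotation. 34945 probe sets had 1 symbol, 932 several and 9160 none given here. Precision is limited by the number of arrays. Neither litters nor batches are in the labels, so the p-values measure the spread between these mice.

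The members, lists, naming rule (every member probe set, Nkx2-2, the 3 genes of lowest p in each of 5 lists, up to 2 in the others, and the 3 genes most like a bright member) and alternatives were chosen with earlier results of these data known. Examples named outside the rule are Nkx2-9, Slc17a6, Pcp2, Snap25 and Nefl. The fit was checked on simulated data. Plots were drawn with matplotlib 3.10.9 in Python 3.11.15, from tables made in pandas 2.3.3.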

Additional observations from a re-analysis of the deposited data

Results flagged for a closer look

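In 28 sets of 5 mice (14 probe sets in each genotype) 2 held a mouse far from the other 4, by Dixon's 95% limit for 5 values. Chance flags about 1 in 20 such sets. Uncx read 6.22 in Nkx2.2-/- replicate 11, against 5.24 to 5.47 in the other 4 Nkx2.2-/- mice, and that mouse was also high in cerebellar genes, as given above. Hmx3 read 4.21 in Nkx2.2-/- replicate 22, against 4.16 in the other 4.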

How the results depend on the processing

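No member probe set was called in any of the 21 alternatives, which were 2 further normalizations, tests on the brightest probe set or on the mean of each gene, a filter on dim probe sets, another prior, array weights, 3 covariates, and leaving out both arrays of low 5 prime Gapdh signal or each array in turn. Of 267 values of member probe sets, 234 had the sign given above and 33 the other. The lowest unadjusted limma p among them was 0.0615 and the lowest adjusted p was 0.72. On all probe sets 15 were called lower with the spinal Hox covariate, 31 with the other prior and 25 with array weights, against 23 in the main fit. On genes, where fewer features were tested, 11 (brightest probe set) and 12 (mean) were called lower.

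Apart from Uncx, signs turned for changes close to 0, and the cause was not tested. With the spinal Hox covariate Hmx3 was at -1.5e-04, Tbx2 at 0.002, Tbx3 1444594_at at -0.018 and Uncx at 0.079, and with the cerebellum covariate Uncx was at 0.007. With the meningeal covariate Tbx2 was at 0.005, Tbx20 1422219_a_at at -0.013 and Tbx3 1437479_x_at at 0.069. Without both arrays of low 5 prime Gapdh signal Tbx2 was at 0.031 and Tbx3 1448029_at at -0.002. With array weights Tbx3 1444594_at was at -0.001 and 1448029_at at -0.014, after quantile normalization Tbx20 1422219_a_at was at -0.003, and the mean of the Tbx3 probe sets was at 0.012. Leaving out each array in turn gave -0.040 to 0.033 for Tbx2, -0.018 to 0.021 for Tbx20 1422219_a_at, -0.065 to 0.020 for Tbx20 1425158_at, -0.039 to 0.046 for Tbx3 1437479_x_at, -0.012 to 0.040 for 1439567_at, -0.005 to 0.037 for 1444594_at and -0.013 to 0.036 for 1448029_at. It kept the sign, with none called, at 0.038 to 0.120 for Sim1 1420736_at, -0.095 to -0.019 for Sim1 1449967_at, -0.364 to -0.055 for Uncx, -0.207 to -0.066 for Tbx20 1453351_at, 0.002 to 0.040 for Tbx3 1445757_at, 0.009 to 0.028 for Hmx3 and -0.075 to -0.033 for Hmx2. The filter on dim probe sets left only Uncx of the members. No paired or litter-blocked analysis was possible, because the labels do not give the litters and the genotypes share no replicate numbers. Low signal limits 13 of the 14 probe sets, so a change of a transcript they do not pick up cannot be seen. Uncx read 5.24 to 5.58 on 7 arrays, near the highest of the other-organ genes, 5.50, so the limit may hold there too.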
